A study of Mus musculus with 6 samples.

Results

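The Src family kinases Lyn, Blk, Fyn, Lck and Fgr, their inhibitor Csk and the kinase Syk were examined in splenic B cells of mice with and without a defect of the kinase Btk. The rule took every probe set annotated to 1 of these 7 symbols. It found 5 of the 7 genes, of 8251 genes annotated on the array, with 8 of its 12488 probe sets: 2 each for Blk, Csk and Syk, and 1 each for Fyn and Fgr. Where a gene had 2, the brighter is called A and the dimmer B. No probe set was annotated to Lyn or Lck, which are not analysed here. All 8 probe sets were bright enough to enter the test.

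RNA of whole splenic B lymphocytes from adult mice was hybridised to 6 Affymetrix MG_U74Av2 arrays, 2 for each of 3 groups. The Btk KO mice were of a line that the labels call Btk KO/SW129, crossed back to CBA over 9 generations. The Xid mice were the CBA/N strain, in which Btk carries the R28C substitution, and the wild type mice were CBA. In each group 1 array belonged to a first run and 1 to a second run with new mice and new RNA, and the labels do not say whether an RNA came from 1 animal or a pool. Each mutation therefore comes with the rest of its strain's genome, and the effects of the 2 cannot be told apart. Values are intensities in the authors' scaled units, on which different probe sets cannot be set against each other.

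When the B cell receptor binds antigen, Src family kinases, mainly Lyn, Blk and Fyn in B cells, phosphorylate tyrosines in the tails of Cd79a and Cd79b. Syk docks there and passes the signal to Blnk, Btk and Plcg2. Csk holds Src family kinases inactive by phosphorylating a tyrosine near their C terminus, and the phosphatase Ptprc (CD45) removes that phosphate. Lck is best known from T cells, and Fgr from myeloid cells.

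One array, that of Btk KO in run 1, differed from the rest in quality. Its 3' to 5' signal ratio, which rises when RNA is degraded, reached 10.4 for Gapdh and 3.61 for actin, while no other array exceeded 1.61 for Gapdh or 1.66 for actin. Its hybridisation day was shared with no other array. The bright Btk probe set measured 276.1 and 173.6 in Btk KO and 841.0 and 643.9 in Xid, against 874.1 and 749.8 in CBA (run 1 first, as in all pairs of values below). Its difference from CBA in Btk KO was a log2 value of -1.86 ± 0.27 (SE; limma adjusted p = 0.052), and the call was made once the run entered the model as a block (adjusted p = 0.0053). The files do not show whether its probes fall inside the deletion. The B cell markers Cd79a and Ms4a1 were bright on all 6 arrays, at 3066.3 or more for Cd79a and 3503.8 or more for Ms4a1.

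Among the kinases, the levels of both Blk probe sets were lower in both mutant lines than in CBA and that of Fyn was higher, in each run. Syk B and Csk B, the dimmer probe sets of their genes, were also lower in both lines in each run. Syk A, the brighter Syk probe set, stood nearly level. None of these differences passed the test across all probe sets. In Btk KO against CBA, limma with Benjamini-Hochberg adjustment called 0 of the 8 probe sets without the block and 0 with it, against 0.174% and 2.23% of the 7453 probe sets tested. For Xid against CBA it called 0 in both models, against 0.0671% and 0.483%. For Btk KO against Xid it again called 0 in both, against 0.0403% and 0.188%.

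**Figure D1:**
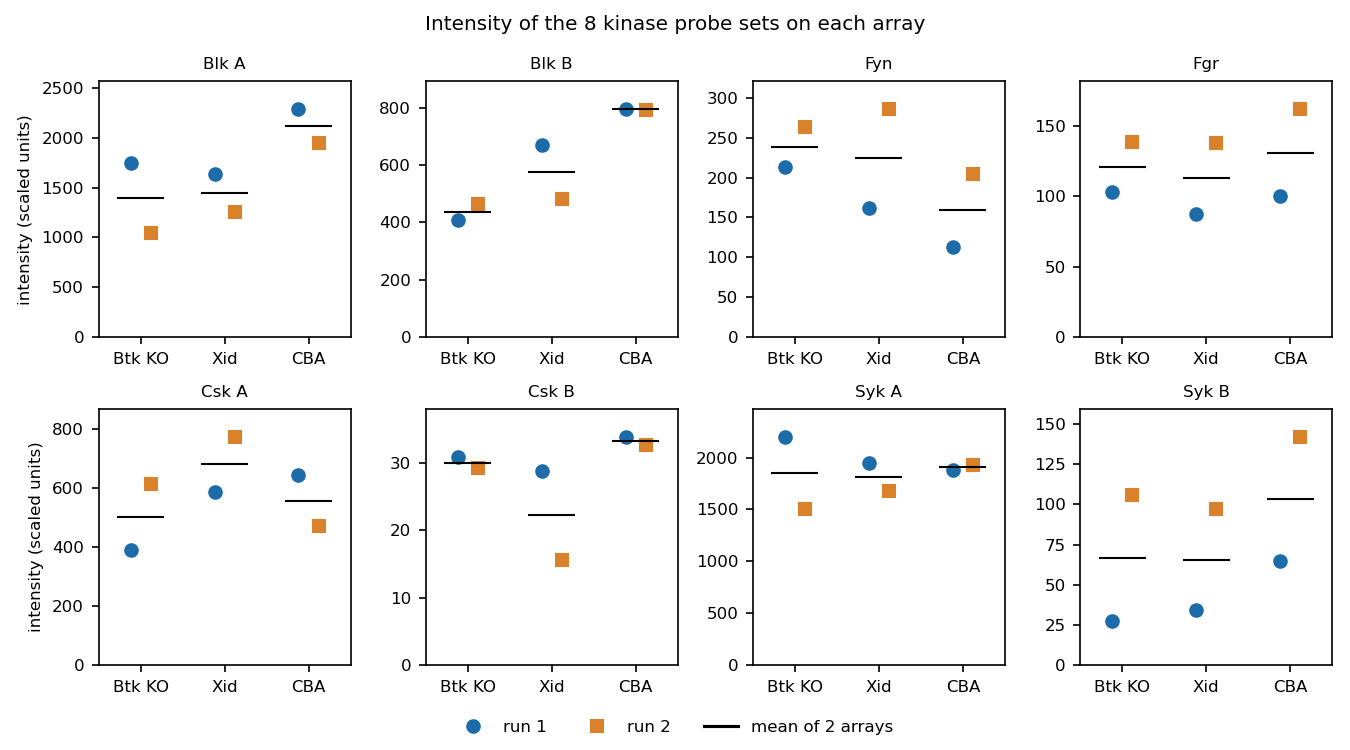
Intensity (scaled units, linear axes from 0) of each of the 8 probe sets on each of the 6 arrays, with circles for run 1, squares for run 2 and a line at the mean of the 2 arrays of a group. Both Blk panels have all 4 Btk KO and Xid arrays below both CBA arrays, and the Syk B panel has every run 2 array above every run 1 array.

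Blk, a Src family kinase found mainly in B lineage cells, was read by 2 probe sets. Blk A measured 1746.6 and 1043.3 in Btk KO and 1638.8 and 1251.2 in Xid, against 2289.5 and 1951.6 in CBA. Every array of either mutant line lay below both CBA arrays, while the arrays of the mutant lines overlapped each other. Group means were 1395 ± 497 in Btk KO, 1445 ± 274 in Xid and 2121 ± 239 in CBA (SD, n = 2 each), so Btk KO stood at 65.8% and Xid at 68.1% of the CBA mean.

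The second probe set, Blk B, measured 410.0 and 464.9 in Btk KO and 671.3 and 481.2 in Xid, against 796.3 and 793.6 in CBA. Here too all 4 arrays of the mutant lines lay below both CBA arrays, and both Btk KO arrays lay below both Xid arrays. The means were 437 ± 38.8 in Btk KO, 576 ± 134 in Xid and 795 ± 1.91 in CBA (SD, n = 2 each), or 55.0% of CBA in Btk KO and 72.5% in Xid. Of the 8 probe sets, 3 had all 4 mutant arrays below both CBA arrays: these 2 and a dim Csk probe set. The share among all probe sets tested was 7.31%.

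On the log2 scale, Blk B in Btk KO differed from CBA by -0.86 ± 0.22 (SE; 95% interval -1.37 to -0.34), with limma adjusted p = 0.25, and 0.077 with the run block. Blk A differed by -0.64 ± 0.29 (-1.33 to 0.04), with limma adjusted p = 0.59, and 0.14 with the block. Both were below 0 within each run, at -0.95 and -0.76 for the first and -0.39 and -0.90 for the second. Without the Btk KO array of run 1 the differences were -0.77 for Blk B and -1.01 for Blk A, and -0.65 and -0.86 with the run block as well. Without the block the sign could not have turned, since both Btk KO arrays lay below both CBA arrays. With the block the differences stayed below 0, resting on 1 Btk KO array. Without the Btk KO array of run 2 the differences were -0.95 for Blk B and -0.27 for Blk A, so the size of the Blk A difference rested largely on the run 2 array.

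Between Xid and CBA the Blk differences were -0.48 ± 0.22 for Blk B and -0.56 ± 0.29 for Blk A (SE), with limma adjusted p = 1.0 for both, and 0.57 and 0.42 with the block. They too lay below 0 in each run, at -0.24 and -0.71 for the first and -0.48 and -0.64 for the second. Without the Xid array of run 2 the differences were -0.24 for Blk B and -0.37 for Blk A. Between the mutant lines, Btk KO minus Xid was -0.38 ± 0.22 for Blk B and -0.08 ± 0.29 for Blk A, with 95% intervals of -0.89 to 0.14 and -0.77 to 0.60. The lines therefore did not differ in Blk beyond the error, and these intervals still allow a Blk A level in Btk KO between 58.6% and 152% of that in Xid.

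B cell markers were also lower in Btk KO. The sum over the 12 marker genes on the array, of 13 listed, was 24400.5 and 23924.5 in Btk KO and 32869.3 and 26739.3 in Xid, against 30773.7 and 32263.3 in CBA. In this sum and those below the brightest probe sets weigh most, and listed genes too dim for the test are added in. The median difference of these 12 genes was -0.26 in Btk KO and -0.08 in Xid, against 0.01 over all probe sets in each comparison, and limma called 0 of them in either model. In Btk KO it was lower within the runs, at -0.47 and -0.49, and -0.43 without the Btk KO array of run 1. In a bulk sample, fewer B cells and less Blk RNA per cell cannot be told apart, and the part of B cell content in the Blk values was not tested.

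Fyn, a Src family kinase of T and B cells and many other tissues, had 1 probe set. It measured 212.9 and 264.0 in Btk KO and 162.0 and 286.1 in Xid, against 113.2 and 204.5 in CBA. Both Btk KO arrays lay above both CBA arrays, the Xid arrays overlapped those of CBA, and run 2 was higher than run 1 in every group. The means were 238 ± 36.1 in Btk KO, 224 ± 87.8 in Xid and 159 ± 64.6 in CBA (SD, n = 2 each), or 150% and 141% of CBA.

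The log2 difference of Fyn from CBA was 0.62 ± 0.36 in Btk KO (SE; 95% interval -0.22 to 1.45) and 0.48 ± 0.36 in Xid (-0.35 to 1.32), with limma adjusted p = 0.71 and 1.0, and 0.18 and 0.57 with the block. Within the runs it was 0.88 and 0.36 in Btk KO, and 0.50 and 0.47 in Xid. Without the Btk KO array of run 1 and with the run block, the Btk KO difference was 0.36 (limma adjusted p = 0.69). Single arrays moved the Fyn values widely: without the CBA array of run 1 the differences were 0.21 in Btk KO and 0.07 in Xid, without that of run 2 they were 1.03 and 0.89, and without the Xid array of run 2 the Xid difference was 0.08. Btk KO and Xid differed by 0.13 ± 0.36 (-0.70 to 0.97).

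Transcripts of other cells that use Fyn were present. The summed T cell markers, 13 of 17 listed genes on the array, were 989.5 and 1207.2 in Btk KO and 940.1 and 1016.4 in Xid, against 798.3 and 1111.4 in CBA. Across runs the groups overlapped, while within each run Btk KO was above CBA, as for Fyn, and Xid was above CBA in run 1 only. The sum includes Zap70, a kinase gene of T and NK cells, at 133.6 and 273.4 in Btk KO against 48.0 and 94.8 in CBA. In run 2 the Zap70 gap between Btk KO and CBA was larger than that of the sum, so the order there rested on this gene. The defining T cell genes Cd3d, Cd3g, Cd247, Cd8a and Cd8b1 were too dim for the test, and Cd3e measured 17.0 and 62.6 in Btk KO and 38.5 and 11.5 in Xid, against 9.7 and 56.2 in CBA. The summed NK and cytotoxic markers, 10 of 14 genes, were 1396.1 and 3260.4 in Btk KO and 878.4 and 1613.9 in Xid, against 583.0 and 1155.5 in CBA. They were higher in either mutant line than in CBA in each run, as Fyn was. So were the sums of the macrophage and monocyte, neutrophil, dendritic cell and erythroid markers. In run 2, however, 2 of these sums were nearly level between Xid and CBA. The neutrophil sum was 442.5 in Xid against 441.2 in CBA, and the erythroid sum 7745.1 against 7670.6. The part of T cell, NK cell or other cell content in the Fyn values was not tested.

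Fgr, a Src family kinase of neutrophils, monocytes and macrophages, had 1 probe set. It measured 102.8 and 138.0 in Btk KO and 87.6 and 137.9 in Xid, against 99.9 and 161.8 in CBA. The 3 groups overlapped throughout, and run 2 was higher than run 1 in each. The log2 difference from CBA was -0.09 ± 0.32 in Btk KO (SE; 95% interval -0.85 to 0.67) and -0.20 ± 0.32 in Xid (-0.96 to 0.56), with limma adjusted p = 0.97 and 1.0. These intervals allow a level between 55.5% and 159% of CBA in Btk KO, and between 51.5% and 147% in Xid.

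Macrophage and monocyte markers did differ on the same arrays. Their sum over 19 of 21 listed genes was 11407.6 and 15454.6 in Btk KO and 7678.9 and 12070.9 in Xid, against 3641.4 and 5459.3 in CBA, with every mutant array above both CBA arrays. The 17 genes tested had a median difference of 1.62 in Btk KO and 1.11 in Xid, where limma called 3 and 0 as higher without the block and 12 and 7 with it. Of all probe sets, 0.174% and 0.0671% were called without the block, and 2.23% and 0.483% with it. Csf1r, the receptor for the macrophage growth factor, measured 750.4 and 917.2 in Btk KO and 551.8 and 822.7 in Xid, against 149.0 and 319.7 in CBA. The Fgr probe set had no such difference, and its interval in Btk KO ends at 0.67.

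**Figure D2:**
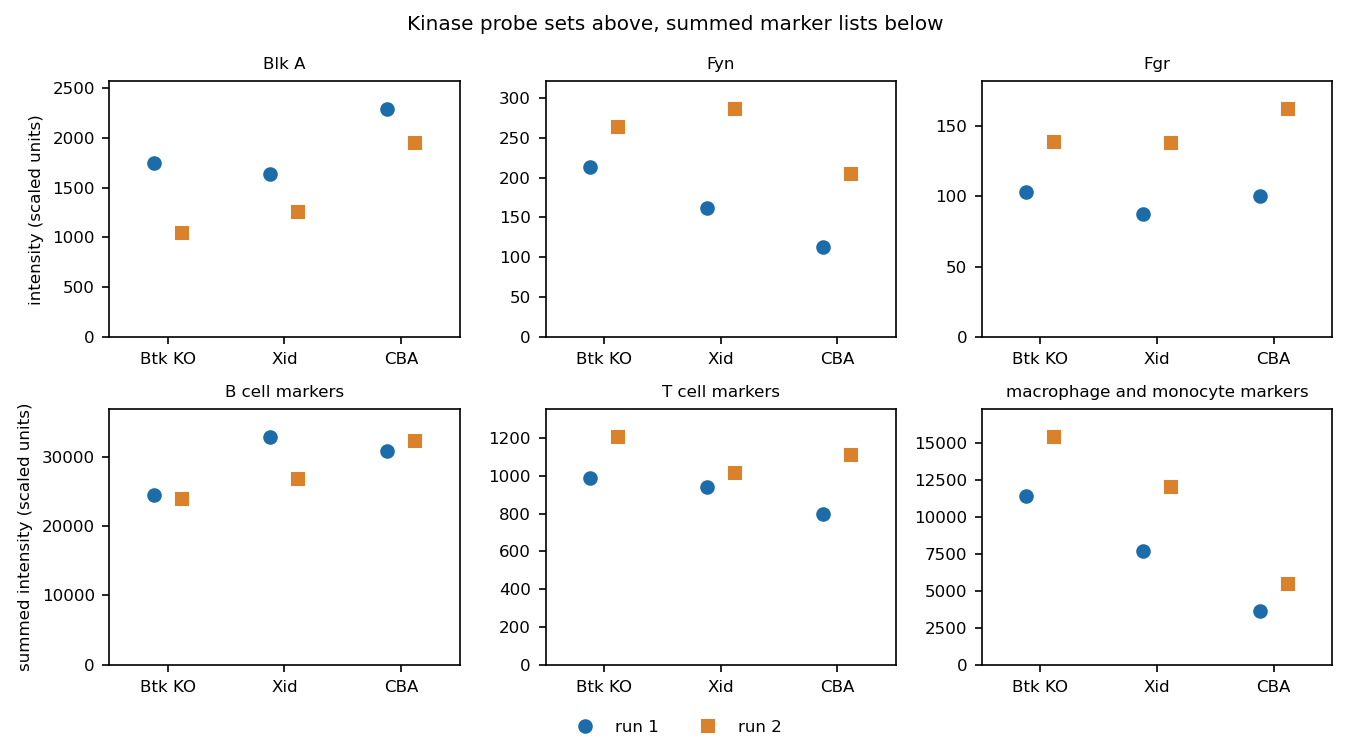
Upper panels give the intensity of Blk A, Fyn and Fgr on each array, and lower panels the summed intensity of the B cell, T cell, and macrophage and monocyte marker genes on the same arrays (scaled units, linear axes from 0; circles are run 1, squares run 2). The macrophage sum is 7678.9 or more on the 4 mutant arrays and at most 5459.3 in CBA, while Fgr spans 87.6 to 138.0 on the mutant arrays and 99.9 to 161.8 in CBA.

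Csk had 2 probe sets, which ordered the groups differently. Csk A measured 391.4 and 615.4 in Btk KO and 587.8 and 774.6 in Xid, against 644.1 and 471.1 in CBA. All 3 groups overlapped, and the difference of Btk KO from CBA was -0.71 in run 1 and 0.38 in run 2. The pooled log2 differences were -0.16 ± 0.29 in Btk KO and 0.29 ± 0.29 in Xid (SE), with 95% intervals of -0.84 to 0.51 and -0.38 to 0.96.

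The dimmer probe set, Csk B, measured 30.9 and 29.2 in Btk KO and 28.8 and 15.6 in Xid, against 33.9 and 32.7 in CBA. It lay just above the intensity of about 19.8 below which probe sets were left out as dim, so 1 of its Xid arrays was below that level. The groups did not overlap, with CBA highest and Xid lowest, but the differences from CBA, -0.12 ± 0.35 in Btk KO and -0.52 ± 0.35 in Xid (SE), were within the error of the fit (limma adjusted p = 0.95 and 1.0). For Btk KO against Xid the 2 Csk probe sets had opposite signs, at -0.45 ± 0.29 for Csk A and 0.39 ± 0.35 for Csk B.

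Syk, which docks on the phosphorylated receptor, also had 2 probe sets. Syk A measured 2201.4 and 1502.4 in Btk KO and 1948.3 and 1679.3 in Xid, against 1876.3 and 1931.7 in CBA. The CBA arrays lay between those of either mutant line, and the means were 97.3% of CBA in Btk KO and 95.3% in Xid. The log2 differences from CBA were -0.07 ± 0.25 in both (SE), with 95% intervals of -0.64 to 0.51 in Btk KO and -0.65 to 0.50 in Xid, which allow levels between 64.1% and 142% of CBA in Btk KO. Btk KO and Xid differed by 0.01 ± 0.25.

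The dimmer probe set, Syk B, whose identifier marks probes that several transcripts may share, measured 27.2 and 105.9 in Btk KO and 34.0 and 97.3 in Xid, against 65.0 and 142.3 in CBA. Its run 2 arrays were higher than its run 1 arrays by 1.75 in Btk KO, 1.37 in Xid and 1.06 in CBA on the log2 scale, more than any pooled difference between the groups. Within each run the mutant lines were below CBA, with differences of -1.10 and -0.41 in Btk KO and -0.83 and -0.52 in Xid. The pooled differences of -0.75 ± 0.68 and -0.67 ± 0.68 (SE) had limma adjusted p = 0.84 and 1.0, and 0.20 and 0.50 with the block. The Btk KO difference was 0.13 without the Btk KO array of run 1, and -0.48 with the block as well.

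Taken over the 8 probe sets, the median log2 difference was -0.14 in Btk KO and -0.34 in Xid against CBA, and -0.03 for Btk KO against Xid, where the medians over all 7453 probe sets lay between 0.00 and 0.01. In Btk KO against CBA 4 of the 8 had groups that did not overlap, beside 36.0% of all probe sets, and 5 had the same sign in both runs, beside 58.5%. Xid against CBA had 3 without overlap, beside 31.4%, and 6 with the same sign, beside 53.2%. Btk KO against Xid had 2 without overlap, beside 26.5%, and 4 with the same sign, beside 53.9%.

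Before adjustment, limma gave a p under 0.05 to 1 of the 8 in Btk KO against CBA, beside 8.83% of all probe sets, and to 4 with the block, beside 15.1%. The counts for Xid against CBA were 0 without the block, beside 4.43%, and 4 with it, beside 8.10%. Those for Btk KO against Xid were 0 in both models, beside 3.61% and 7.31%. The 4 were the same in both mutant lines, namely both Blk probe sets, Fyn and Syk B. The 2 Blk probe sets read 1 gene, and both comparisons use the same CBA arrays, so the counts are not independent of each other.

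**Figure D3:**
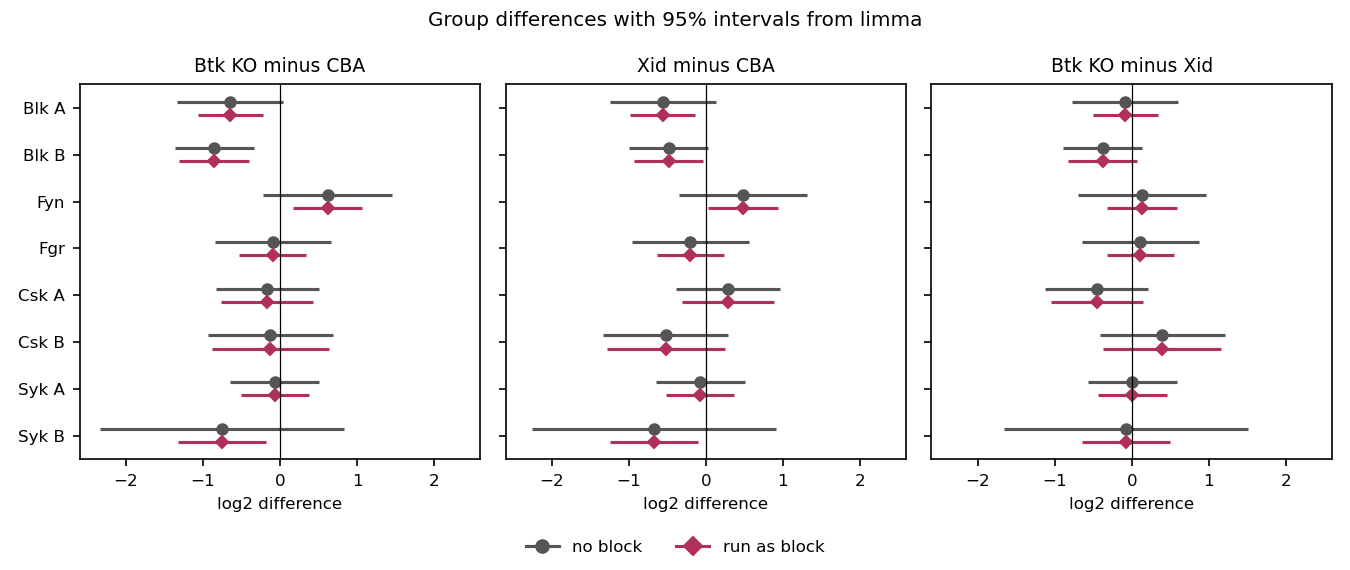
Log2 difference between groups (points) with its 95% interval from limma (bars), for each of the 8 probe sets and the 3 comparisons, without the run block (grey circles) and with it (red diamonds). With the block the intervals of both Blk probe sets, Fyn and Syk B leave out 0 in both comparisons with CBA, before adjustment for the number of probe sets, and all intervals in Btk KO minus Xid include 0.

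Other genes that act with these kinases were read from 3 lists, each gene by its brightest tested probe set. Of 16 further Src family members and partners of Csk, 12 were on the array and 10 were bright enough, and limma called 0 of them in any comparison, with or without the block. Yes1 and Frk, other kinases of the Src type, were among the dim ones, and Src itself measured at most 44.1. The median difference was -0.04 in Btk KO, or 0.01 without the Btk KO array of run 1, and 0.05 in Xid.

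Single partners had larger differences that did not pass in the model without the block or with it. Ptpn6, the phosphatase SHP-1 that inhibitory receptors recruit, measured 608.7 and 830.6 in Btk KO and 861.4 and 954.5 in Xid, against 1177.8 and 1182.4 in CBA, without overlap between any 2 groups (Btk KO minus CBA -0.73 ± 0.22, SE; limma adjusted p = 0.34, and 0.089 with the block). Ptpn22, a phosphatase that binds Csk, measured 341.1 and 282.2 in Btk KO and 203.4 and 211.6 in Xid, against 336.3 and 551.0 in CBA, so Xid was the lowest group (Xid minus CBA -1.03 ± 0.26; limma adjusted p = 0.49, and 0.18 with the block). Without the Btk KO array of run 1 this Ptpn22 difference was still -1.03, with or without the block. Ptprc, the activator of Src family kinases, measured 716.0 and 1243.6 in Btk KO and 1277.3 and 1198.3 in Xid, against 1181.7 and 898.3 in CBA. The adaptor Dok2 differed from CBA by 0.79 in Btk KO and 0.32 in Xid, and the ubiquitin ligase Cbl by 0.39 and -0.12, none past the threshold.

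Of 20 adaptors and substrates of Syk, 16 were on the array and all 16 were tested. Without the block limma called 0 in any comparison. With it, 3 rose in Btk KO against CBA, namely Zap70, Lcp2 and Tyrobp, and 1 fell, Btk itself. In Xid against CBA 0 were called, and in Btk KO against Xid Btk alone was called. Of all probe sets, 2.23%, 0.483% and 0.188% were called with the block in these comparisons. With the block and without the Btk KO array of run 1, Btk KO had no replicate. Its differences from CBA in that fit were 1.45 for Zap70, 1.98 for Lcp2, 1.23 for Tyrobp and -2.03 for Btk. The median difference was -0.28 in Btk KO, or -0.10 without that array, and -0.15 in Xid.

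Zap70, the relative of Syk in T and NK cells, measured 133.6 and 273.4 in Btk KO and 73.9 and 151.2 in Xid, against 48.0 and 94.8 in CBA, a difference of 1.42 ± 0.48 in Btk KO (SE; limma adjusted p = 0.40, and 0.012 with the block). Lcp2 (SLP-76), the counterpart of Blnk in T, NK and myeloid cells, measured 124.2 and 162.7 in Btk KO and 68.8 and 90.0 in Xid, against 24.2 and 38.0 in CBA (2.02 ± 0.29 in Btk KO; limma adjusted p = 0.052, and 0.0064 with the block). Its 3 groups did not overlap, with Btk KO highest and CBA lowest. Tyrobp (DAP12), a receptor adaptor of NK and myeloid cells that recruits Syk and Zap70, measured 981.0 and 1548.0 in Btk KO and 571.3 and 1233.0 in Xid, against 316.0 and 649.3 in CBA (1.43 ± 0.46; limma adjusted p = 0.39, and 0.010 with the block). Fcer1g, a Syk-binding chain of Fc receptors, differed by 1.18 in Btk KO and 0.72 in Xid and did not pass. The summed NK and macrophage markers given above were higher in the same arrays, and their part in these values was not tested.

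The B cell receptor chain Cd79a measured 3066.3 and 3982.2 in Btk KO and 5533.1 and 4438.1 in Xid, against 5287.4 and 6004.4 in CBA (Btk KO minus CBA -0.69 ± 0.26, SE; limma adjusted p = 0.49, and 0.19 with the block). Both Btk KO arrays were the lowest of the 6. The other 10 B cell and general signalling genes of that list, among them Blnk, Plcg2 and Vav1, were not called in any comparison.

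Of 9 inhibitory receptors and effectors that depend on Lyn, 7 were on the array and 6 were tested, and limma called 0 in any comparison in either model. The median difference was -0.52 in Btk KO, at -0.84 and -0.26 within the runs, and -0.17 in Xid. Cd72, a co-receptor that recruits Ptpn6, measured 439.2 and 521.4 in Btk KO and 742.6 and 646.7 in Xid, against 1093.9 and 818.6 in CBA, in the order CBA, Xid, Btk KO without overlap (Btk KO minus CBA -0.97 ± 0.22, SE; limma adjusted p = 0.19, and 0.051 with the block). Cd22, a sialic acid binding co-receptor, was ordered in the same way at 589.3 and 607.0 in Btk KO and 752.9 and 687.3 in Xid, against 990.5 and 912.7 in CBA (-0.66 ± 0.18; limma adjusted p = 0.29, and 0.083 with the block). The inhibitory Fc receptor Fcgr2b differed from CBA by -0.61 in Btk KO, the lipid phosphatase gene Inpp5d by -0.21, and Pirb, a receptor of B and myeloid cells, by 0.68. None of these passed the threshold.

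**Figure D4:**
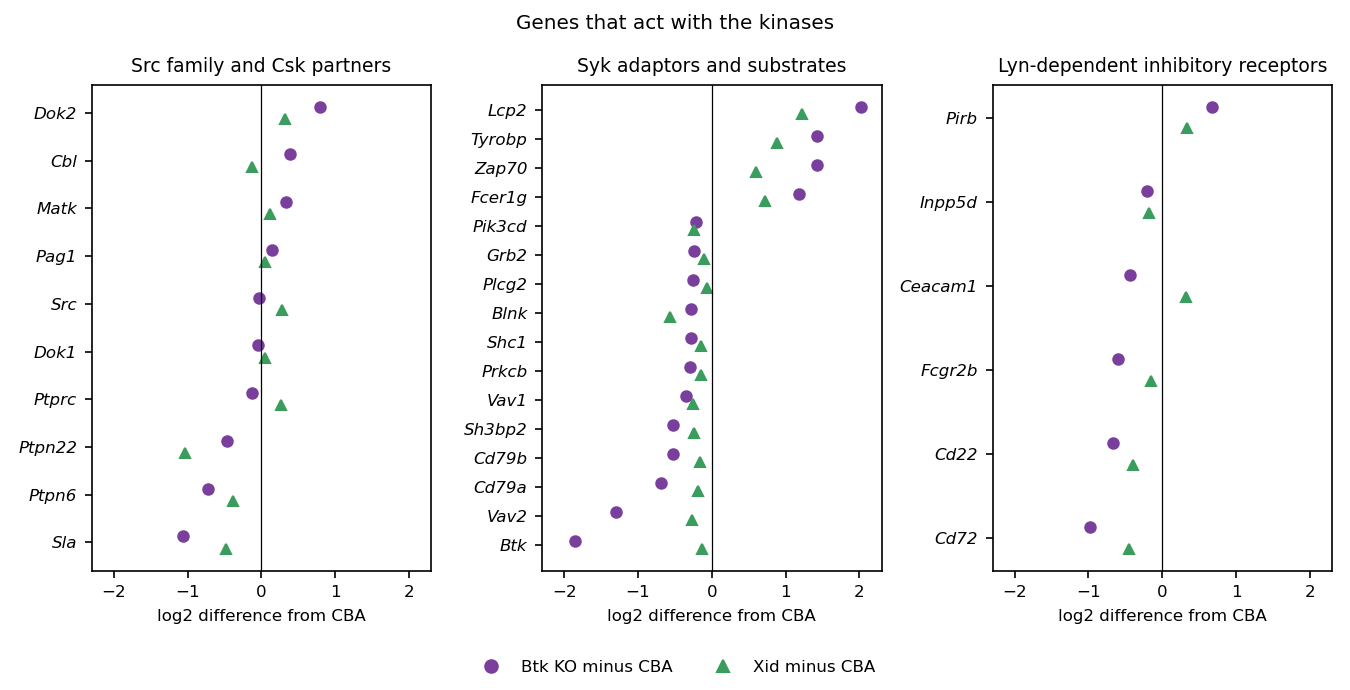
Log2 difference from CBA of each tested gene in 3 lists, for Btk KO (circles) and Xid (triangles), ordered by the Btk KO value. Both comparisons use the same 2 CBA arrays. Lcp2, Tyrobp, Zap70 and Fcer1g lie at 1.18 or more in Btk KO, and Btk lies at -1.86. Fcer1g was dim in CBA, at 18.3 and 14.2.

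The remaining marker lists describe what else the preparations held. Median differences of Btk KO from CBA were 1.37 for NK and cytotoxic, 0.46 for neutrophil, 1.52 for erythroid, 0.50 for dendritic cell and 0.42 for T cell markers. Those of Xid from CBA were 0.46, 0.06, 0.38, 0.25 and 0.12 in the same order. Without the Btk KO array of run 1 the Btk KO medians were 1.81, 1.21, 1.32, 0.87 and 0.63, again in that order. The erythroid median in Btk KO was 2.02 in run 1 and 0.99 in run 2. Without the block limma called 2 of 9 neutrophil genes as higher in Btk KO, and 0 NK and cytotoxic or T cell genes. With the block it called 5 of 10 NK and cytotoxic genes, 4 of 9 neutrophil genes and 1 of 8 T cell genes. The T cell gene was Zap70, which is also in the Syk list. Of all probe sets, 0.174% were called without the block and 2.23% with it. In Xid against CBA 0 of these marker genes were called in either model. The granule gene S100a8 measured 267.1 and 629.3 in Btk KO and at most 65.4 in Xid, against 50.9 and 64.5 in CBA, and the granzyme gene Gzma 218.3 and 560.2 in Btk KO and 144.7 and 291.4 in Xid, against 86.0 and 128.9 in CBA. The macrophage and granulocyte lysozyme gene Lyz2 differed from CBA by 0.82 in Btk KO and 0.26 in Xid and the globin gene Hba-a1 by 1.04 and 0.29, none past the threshold. The Hba-a1 difference in Btk KO was 1.79 in run 1 and 0.29 in run 2, and 0.52 without the Btk KO array of run 1. Of 5 platelet genes on the array 4 were dim, Pf4 among them at 14.8 or less.

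The genes whose log2 values over the 6 arrays were most like those of each kinase's brightest probe set were read off by Pearson's r, as a description over 6 arrays that share groups and runs. For Blk they were Gtf2f1, Bmi1 and Aimp1 (r = 0.98 each), for Fyn Ddr1, Acp1 and Zbed3 (0.998, 0.995 and 0.990), and for Fgr Pigt, Stat3 and Susd6 (0.988, 0.981 and 0.976). For Csk they were Psmc3, Sprr2e and Pbrm1 (0.976, 0.968 and 0.961), and for Syk Zfp239, Clpp and Cwc22 (0.985, 0.984 and 0.984). Of 6663 probe sets compared, between 52 and 108 had r above 0.9 with each kinase.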

How the data were processed

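The values deposited by the authors are linear intensities, 1 for each probe set on each array. Which software summarised the probes is not given in the sources used here. These deposited intensities had a 2% trimmed mean of 100.06 on every array, and no further scaling was applied. Probe sets took their gene from the platform annotation, with symbols updated by gene number in a RefSeq gene table. Of 12422 probe sets that are no controls, those whose mean log2(intensity + 6) lay below the 40th percentile (an intensity of about 19.8) were left out, which kept 7453. Group means were fitted over all 6 arrays in limma 3.58.1 (R 4.3.3; lmFit, eBayes with intensity trend, 3 residual degrees of freedom), and p-values were two-sided and adjusted by Benjamini-Hochberg over the 7453 at a threshold of 0.05. Code was tested on simulated data.

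A replicate number stands for a run: the design text describes 3 chips followed by 3 with new mice, per the file headers each run had its own chip lot, and deviations from group means correlated within a run (0.44 for Btk KO with Xid, 0.37 for Btk KO with CBA, 0.31 for Xid with CBA). By the same headers the Btk KO array of run 1 had a hybridisation day of its own. For that array the day and the group cannot be told apart, within run 1 or with the block. The run block is a fixed term. P-values rest on the spread between the 2 arrays of a group, pooled over the 3 groups and moderated by the intensity trend. With the run block they rest on what remains of that spread after the shift between runs is taken out, with 2 residual degrees of freedom. Of each pathway list, the 4 genes with the smallest p in either comparison with CBA were to be named, with 9 fixed markers, and for each kinase the 3 genes of highest Pearson r. Blnk, Plcg2, Vav1, Src and the genes named as dim fall outside that rule. The members, lists and rules were chosen with earlier results of these data known. Figures were drawn with matplotlib 3.10.9.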

Additional observations from a re-analysis of the deposited data

How the results depend on the processing

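The count of kinase probe sets called stayed at 0 in all 3 comparisons under every alternative run: the run block (replicate block), other scalings, pseudocounts and filters, no trend, only the compared groups, each array left out, and the block without Btk KO replicate 1. The block also changed no call of a single kinase probe set. The 64 recomputed Blk differences from CBA were all below 0, and the 32 of Fyn above 0, but their size varied. These counts add little, since the block with all arrays, the filters, the trend and the choice of groups left the differences themselves unchanged. With all 4 mutant arrays below both CBA arrays, leaving out 1 array could not turn a Blk sign. Without 1 array, Btk KO minus CBA ran from -1.01 to -0.27 for Blk A, -0.95 to -0.77 for Blk B and 0.21 to 1.03 for Fyn, and Xid minus CBA from -0.75 to -0.37, -0.72 to -0.24 and 0.07 to 0.89. Of 381 recomputed kinase differences 29 turned sign, none of them called.

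Over all probe sets the counts moved. In Btk KO against CBA, 13 became 166 with the replicate block, 91 with the block and without Btk KO replicate 1, 8 with quantile normalization, median centring or no filter, 24 with a pseudocount of 32, 29 with the stricter filter, and 0 without the trend or with only the compared groups. Leaving out 1 array gave 0 to 145, the latter without Btk KO replicate 2, which leaves the array with the high 3' to 5' ratios alone, and 0 without any 1 Xid or CBA array. The 5 of Xid against CBA became 36 with the block, 76 with the block and without Btk KO replicate 1, 3 and 8 with pseudocounts of 1 and 32, 9 with only the compared groups, and 0 to 9 without 1 array. The 3 of Btk KO against Xid became 14 with the block, 12 with the block and without Btk KO replicate 1, 8 with a pseudocount of 32, 0 with only the compared groups, and 0 to 29 without 1 array. Where 1 array is left out, its group has no replicate and adds no spread, so those counts rest on the spread of the other groups. The causes were not tested.

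Ranges without 1 array that crossed 0 were, in Btk KO against CBA, -0.42 to 0.24 for Fgr, -0.49 to 0.16 for Csk A, -0.34 to 0.21 for Syk A and -1.63 to 0.13 for Syk B. For Xid against CBA they were -0.53 to 0.13 for Fgr, -0.18 to 0.033 for Syk A and -1.36 to 0.0096 for Syk B. For Btk KO against Xid they were -0.45 to 0.29 for Blk A, -0.26 to 0.53 for Fyn, -0.20 to 0.42 for Fgr, -0.27 to 0.28 for Syk A and -0.95 to 0.80 for Syk B. With the block and without Btk KO replicate 1, signs turned to 0.024 and 0.17 for Csk B and Csk A against CBA, and against Xid to -0.12 for Fyn, -0.0099 for Fgr, -0.22 for Syk A and 0.19 for Syk B. Syk A turned to 0.011 in Btk KO and 0.0105 in Xid against CBA with quantile normalization, and to -0.028 in Btk KO against Xid with median centring. With 2 arrays a group, differences of the size seen for Blk and Fyn could not be told from the error across all probe sets.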
